A study of Homo sapiens with 6 samples.

Results

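The 10 genes described here encode the kinases, sensors and mediators that start the DNA damage checkpoint, namely ATM, ATR, ATRIP, CHEK1, CHEK2, CLSPN, TOPBP1, RAD9A, HUS1 and RAD17. They were taken by symbol from a deposited table of 27942 genes, in which each of the 10 symbols occurs once, and all 10 passed the filter on low counts that left 13727 genes for testing. Polyadenylated RNA was sequenced from HCT116, an established human colorectal carcinoma cell line that the study lists as wild-type for p53. The untreated group (NT) had 3 libraries, and the group treated with 0.5 µM of the platinum drug oxaliplatin for 24 h (OXA) also had 3. The labels list penicillin and streptomycin in the medium of both groups, whereas the methods of the study exclude antibiotics. Nothing in the labels says that the libraries of a group came from separate cultures, so p-values measure the spread between these libraries, which may be technical. A single cell line was used, and the values are mRNA abundances, which say nothing of the phosphorylation through which these kinases act.

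Checkpoint signaling after DNA damage is usually drawn as a pair of arms. ATM, together with the MRE11-RAD50-NBN complex, responds to double-strand breaks and phosphorylates CHEK2. ATR is brought by its partner ATRIP to single-stranded DNA coated with RPA, as it forms at stalled replication forks and at platinum crosslinks. There, RAD17 loads the ring-shaped clamp of RAD9A, HUS1 and RAD1, the clamp holds TOPBP1, and TOPBP1 switches ATR on. ATR then phosphorylates CHEK1 with the help of the mediator claspin, the product of CLSPN. CHEK1 and CHEK2 restrain the CDC25 phosphatases, and so hold back the cyclin-dependent kinases.

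Library totals lay between 32979521 and 40967880 counts, with 5.69% to 6.09% of a library in its top 10 genes. NT library 1 stood apart: the SD over genes of its log2 deviation from the group mean was 0.364, against 0.213 to 0.272 in the other 5 libraries. Across 13675 genes this deviation had a Pearson correlation of -0.719 with the GC content of the transcript, so that GC-poor genes tended to read high in this library, and across the 10 genes the correlation was -0.787. Both are descriptions over genes of the same library. Fold changes of the 10 genes are therefore given with and without NT library 1. The epithelial genes EPCAM, CDH1, KRT8 and KRT18 had at least 3282 raw counts in every library. The other colorectal epithelial markers looked at were lower, with 434 to 599 for CDX2, 39 to 95 for VIL1, 26 to 61 for KRT20 and 0 to 3 for CDH17. The fibroblast gene DCN was at 0 throughout and the leukocyte gene PTPRC had at most 2 raw counts, while COL1A1, also a fibroblast marker, had 107 to 273. Of the endothelial markers, VWF had 13 to 29, PECAM1 1 to 7 and CDH5 0 to 4.

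By edgeR's quasi-likelihood test with a threshold of 0.05 on the adjusted p-value, 3 of the 10 genes were lower in OXA than in NT, namely CLSPN, TOPBP1 and CHEK1, and 0 were higher. Among all 13727 genes tested, 2.29% were called lower and 2.78% higher. Without adjustment, 5 of the 10 had a p-value under 0.05 and were lower and 0 were higher, against 11.1% and 10.7% of all genes. DESeq2 called 3 of the 10 lower and 0 higher, against 4.23% and 4.48% of all genes. All 10 estimates lay below 0, as did 46.7% of the estimates of all genes, and the median log2 fold change was -0.15 for the 10 genes and 0.023 for all genes. In 5 of the 10 genes every OXA library lay below every NT library, against 14.4% of all genes. When the replicate number entered the model as a block, edgeR called 4 of the 10 lower, ATR being the fourth, and 0 higher, against 10.9% and 12.1% of all genes. Without NT library 1 edgeR called the same 3 genes lower, against 4.11% of all genes. Without OXA library 1, and likewise without OXA library 2, edgeR called 0 of the 10, and the shares of all genes called lower were 0.136% and 0.231%. Leaving out NT library 2, NT library 3 or OXA library 3 gave 2, 1 and 1 of the 10 called lower. Of all genes, 146, 69 and 67 were called lower in these fits, against 315 with all 6 libraries. The transcripts of the 3 called genes had a GC content of 41.6% to 44%, and NT library 1 lay 0.22 to 0.27 above the group mean of each on the log2 scale. The part of GC content in these differences was not tested, beyond the fit without that library. The RNA came from bulk cultures, so fewer cells in S phase and less RNA per cell cannot be told apart.

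**Figure D1:**
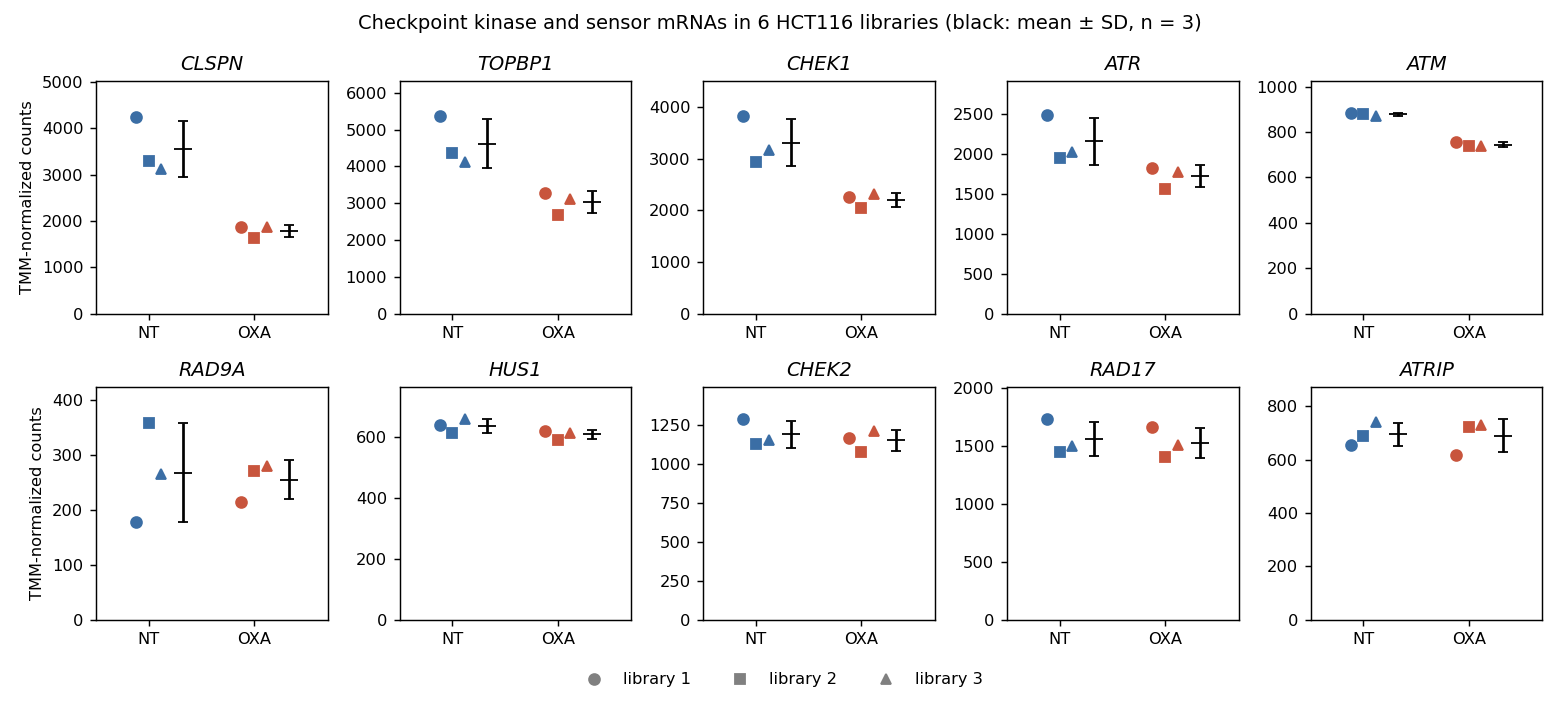
TMM-normalized counts (y axis, from 0) of the 10 genes in the NT libraries (blue) and OXA libraries (red), with the library number as the symbol and the mean ± SD of 3 libraries in black. All 3 OXA libraries lie below all 3 NT libraries in CLSPN, TOPBP1, CHEK1, ATR and ATM, and the groups overlap in the other 5 genes.

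CLSPN (ENSG00000092853, chromosome 1 of GRCh38 from 35720218 to 35769978), the gene of the adaptor that presents CHEK1 to ATR, had the largest difference of the 10. Its normalized counts, that is counts scaled by the TMM library factors, were 4234, 3284 and 3123 in NT libraries 1 to 3 and 1860, 1625 and 1863 in OXA libraries 1 to 3. The highest OXA library thus stayed below the lowest NT library by a wide margin. CLSPN fell by 49.7%, from 3547 ± 601 (mean ± SD, n = 3) to 1783 ± 137 normalized counts, a log2 fold change of -0.99 ± 0.13 (SE) at an adjusted p of 0.00975 by edgeR. Without NT library 1 the log2 fold change was -0.84 (edgeR adjusted p = 0.00158). The call was lost without OXA library 1 or OXA library 2, with an edgeR adjusted p of 0.0608 and 0.0562.

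CHEK1 (ENSG00000149554, chromosome 11 from 125625163 to 125676255), the effector kinase of the ATR arm, read 3824, 2940 and 3161 across NT against 2249, 2038 and 2309 across OXA, in normalized counts. The groups did not overlap, and NT library 1 was the highest of all 6. CHEK1 fell by 33.5%, from 3308 ± 460.2 to 2199 ± 142, a log2 fold change of -0.59 ± 0.12 (SE) at an adjusted p of 0.0358 by edgeR. The log2 fold change was -0.47 without NT library 1 (edgeR adjusted p = 0.0184). The call held without NT library 1 or 2, and was lost without NT library 3 or any 1 of the OXA libraries, where the edgeR adjusted p reached 0.151. In the fits that lost it, the log2 fold change was from -0.66 to -0.54, and calls were fewer among all genes too.

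CHEK2 (ENSG00000183765, chromosome 22 from 28687743 to 28742422), the effector kinase of the ATM arm, gave no call. Its normalized counts were 1289, 1131 and 1154 in NT and 1171, 1080 and 1213 in OXA, and the groups overlapped. The log2 fold change was -0.045 (95% confidence interval -0.28 to 0.19, edgeR adjusted p = 0.846), and it was 0.016 without NT library 1. The lower end of the interval lies above the estimate for CHEK1. GENCODE names 7 pseudogenes of CHEK2, and the share of reads that the counting gave to such copies is uncertain.

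The ratio of the raw counts of a pair of genes within a library needs no scaling for library totals. The kinases can be set side by side by it. A deviation that depends on GC content, as in NT library 1, need not cancel between genes of unlike GC content. CHEK1 had 2.97, 2.60 and 2.74 counts for each CHEK2 count in NT, and 1.92, 1.89 and 1.90 in OXA. The ratio was thus 2.77 ± 0.185 in NT and 1.90 ± 0.0177 in OXA (mean ± SD, n = 3), with no overlap and with NT library 1 the highest. CLSPN had 1.11, 1.12 and 0.988 counts for each CHEK1 count in NT and 0.827, 0.797 and 0.807 in OXA, again without overlap. The 7 ratios computed are given as values without a test, as the pairs were picked after raw counts had been seen, and 3 libraries against 3 cannot go below p = 0.1 in a two-sided exact permutation test. How often ratios of other gene pairs lie apart between the groups was not computed.

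**Figure D2:**
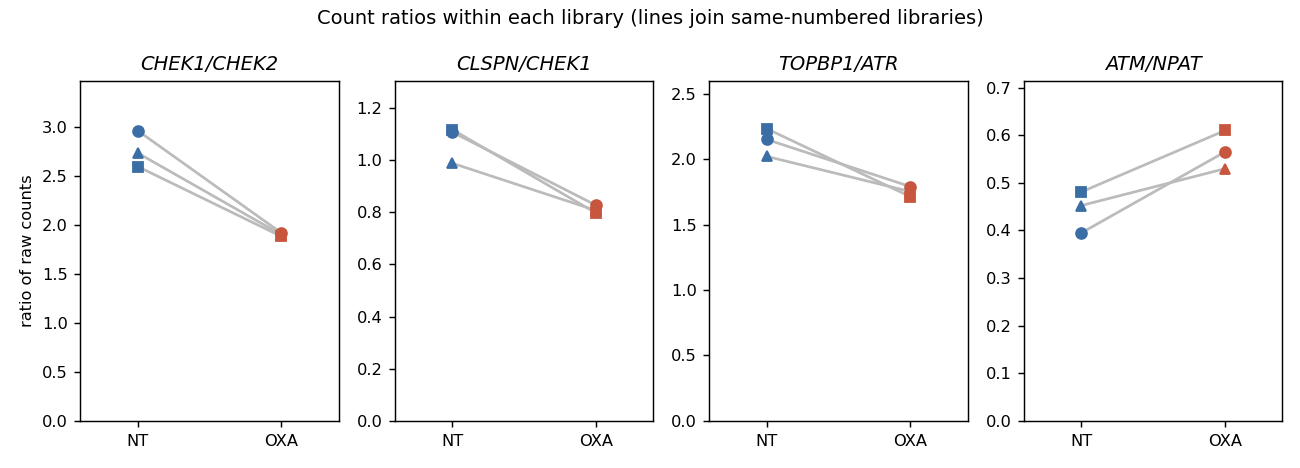
Ratio of raw counts (y axis, from 0) of 4 gene pairs within each library, NT in blue and OXA in red, with lines between libraries of the same number. CHEK1 per CHEK2, CLSPN per CHEK1 and TOPBP1 per ATR are lower in every OXA library than in every NT library, and ATM per NPAT is higher. Of the 7 ratios computed, the 4 shown are those without overlap between the groups. ATR per ATM, ATR per ATRIP and HUS1 per RAD9A overlapped and are not shown.

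TOPBP1 (ENSG00000163781, chromosome 3 from 133598175 to 133662380), the direct activator of ATR, was the other called gene of the ATR arm. The NT libraries gave 5359, 4372 and 4105 normalized counts and the OXA libraries 3271, 2689 and 3111, with every OXA library below every NT library. TOPBP1 fell by 34.4%, from 4612 ± 660.5 to 3023 ± 301, a log2 fold change of -0.61 ± 0.13 (SE) at an adjusted p of 0.0399 by edgeR. Without NT library 1 it was -0.49 (edgeR adjusted p = 0.0235), and the call was lost without any 1 of the other 5 libraries, where the edgeR adjusted p reached 0.158. In those 5 fits the log2 fold change was from -0.72 to -0.53, and calls were fewer among all genes too.

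ATR (ENSG00000175054, chromosome 3 from 142449007 to 142578733), the apical kinase of the replication stress response, had 2491, 1958 and 2031 normalized counts among the NT libraries, against 1826, 1569 and 1775 among the OXA libraries. The groups did not overlap, but the margin between the highest OXA and the lowest NT library was small. The difference, a log2 fold change of -0.33 ± 0.12 (SE), did not pass the threshold at an adjusted p of 0.174 by edgeR. It passed when the replicate number was a block (-0.32, edgeR adjusted p = 0.0256). It was -0.21 without NT library 1 (edgeR adjusted p = 0.233). TOPBP1 had 2.15, 2.23 and 2.02 counts for each ATR count in NT and 1.79, 1.71 and 1.75 in OXA, so that this ratio too was lower in every OXA library.

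ATRIP (ENSG00000164053, chromosome 3 from 48446710 to 48467645), the obligate partner through which ATR reaches RPA-coated DNA, gave 656, 688 and 742 normalized counts among the NT libraries, against 619, 722 and 729.7 among the OXA libraries. Its groups overlapped throughout, with a log2 fold change of -0.011 (95% confidence interval -0.28 to 0.26, edgeR adjusted p = 0.973), and -0.051 without NT library 1. ATR had 3.80, 2.85 and 2.74 counts for each ATRIP count in NT and 2.95, 2.17 and 2.43 in OXA. The groups overlapped in this ratio, which was lower in OXA in all 3 pairs of libraries with the same number. In the authors' normalized counts, ATR and ATRIP were at 1769 and 773 in NT library 3 and 1627 and 687 in OXA library 3. By these the pair of number 3 turned the other way, and those of numbers 1 and 2 did not. The GC content of the transcripts was 39.7% for ATR and 58.6% for ATRIP. Neither the ratio nor the part of GC content in it was tested. Exons of ATRIP share 1448 bases with TREX1, an exonuclease gene on the same strand, so reads there could have been counted for either. TREX1 itself stood at 130 ± 59.4 normalized counts in NT against 110 ± 41.4 in OXA (log2 fold change -0.24, edgeR adjusted p = 0.798).

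The genes of the clamp and its loader gave no call. RAD17 (ENSG00000152942, chromosome 5 from 69369293 to 69414801), which loads the clamp, gave 1732, 1450 and 1506 normalized counts across NT against 1667, 1405 and 1511 across OXA (log2 fold change -0.032, 95% confidence interval -0.29 to 0.23). HUS1 (ENSG00000136273, chromosome 7 from 47963288 to 47979615), a clamp subunit, gave 639.9, 614 and 659.8 in NT and 619.98, 592 and 614 in OXA (log2 fold change -0.068, 95% confidence interval -0.31 to 0.17). The groups overlapped for both genes, and the edgeR adjusted p was 0.903 for RAD17 and 0.756 for HUS1. Without NT library 1 the log2 fold change was 0.048 for RAD17, with the sign turned, and -0.066 for HUS1. GENCODE also names 2 pseudogenes of RAD17, with the same uncertainty as for CHEK2.

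RAD9A (ENSG00000172613, chromosome 11 from 67317871 to 67398410), the clamp subunit whose tail binds TOPBP1, was the least precise of the 10. Its normalized counts were 179, 359.6 and 266 in NT and 215, 270.4 and 281 in OXA, and the lowest and the highest of the 6 values were both NT libraries. The log2 fold change was -0.070 with a 95% confidence interval from -0.66 to 0.52 (edgeR adjusted p = 0.907). It was -0.29 without NT library 1 and 0.17 without NT library 2, so that its sign turned on 1 library. RAD9A had the highest GC content of the 10 transcripts (60.2%), and NT library 1 lay 0.52 below the group mean on the log2 scale. The part of GC content in this spread was not tested. HUS1 counts per RAD9A count, 2.59 ± 0.939 in NT and 2.42 ± 0.399 in OXA, overlapped between the groups.

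ATM (ENSG00000149311, chromosome 11 from 108223044 to 108369102), the apical kinase of the double-strand break response, was the most even of the 10 within each group in TMM-normalized counts. NT libraries gave 882, 879 and 871 normalized counts, and OXA libraries 757, 738 and 739. The groups did not overlap, at 877 ± 6.01 and 745 ± 11.0, and the estimate was 15.1% lower in OXA. The authors' normalized counts of ATM were less even, at 933, 776 and 862 in NT and 697, 635 and 725 in OXA. The fit shares information on the spread across genes, and under it the difference, a log2 fold change of -0.24 ± 0.093 (SE), did not pass the threshold at an adjusted p of 0.196 by edgeR. The edgeR adjusted p was 0.0574 with the replicate number as a block and 0.176 without NT library 1. ATR had 2.82, 2.23 and 2.33 counts for each ATM count in NT and 2.41, 2.13 and 2.40 in OXA, so the balance of the apical kinases overlapped between the groups.

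**Figure D3:**
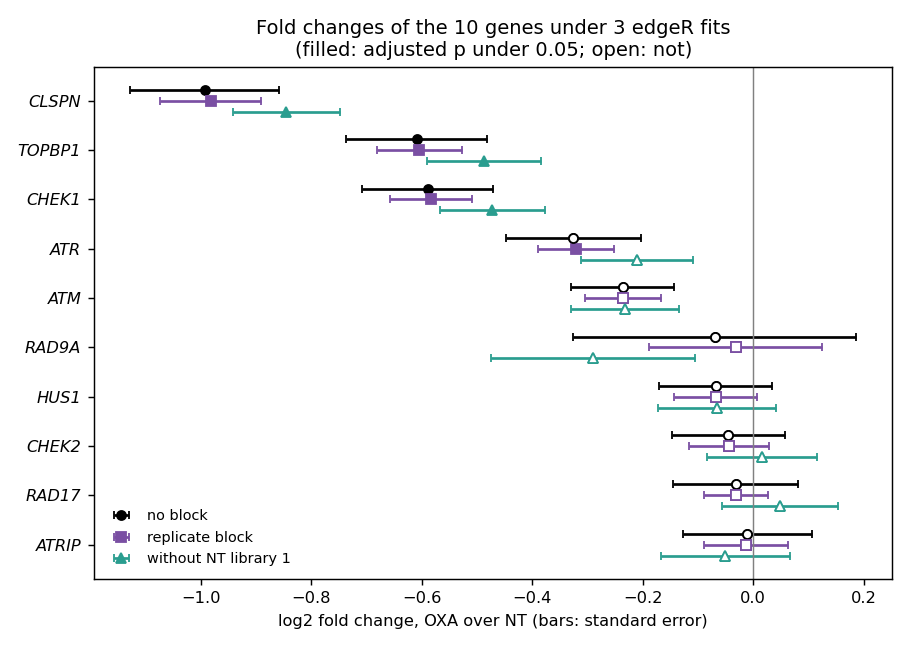
Log2 fold change of OXA over NT (x axis, bars are standard errors) for the 10 genes in 3 edgeR fits, namely without a block (black), with the replicate number as a block (purple) and without NT library 1 (green). Filled symbols have an adjusted p-value under 0.05, which CLSPN, TOPBP1 and CHEK1 have in each of the 3 fits and ATR with the block.

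The start of ATM lies 406 bases from that of NPAT, a coactivator of histone genes that is transcribed the other way. NPAT gave 2234, 1828 and 1925 normalized counts across NT against 1341, 1210.2 and 1394 across OXA. NPAT fell from 1995 ± 212 to 1315 ± 94.7, a log2 fold change of -0.60 ± 0.11 (SE) at an adjusted p of 0.0273 by edgeR. ATM had 0.395, 0.481 and 0.452 counts for each NPAT count in NT and 0.565, 0.610 and 0.530 in OXA, so that this ratio was higher in every OXA library. The other divergent neighbours were HSCB at CHEK2, and AK6 and TAF9 at RAD17. Their log2 fold changes were 0.25, 0.19 and 0.20, and none was called (edgeR adjusted p between 0.370 and 0.373). Of genes that share exon bases with one of the 10, C11orf65 at ATM, STT3A at CHEK1 and PPP1CA at RAD9A also gave no call (edgeR adjusted p between 0.601 and 0.699). The strand setting of the counting is not given in the sources used here, so reads over bases shared with genes on the opposite strand, such as C11orf65, PPP1CA and HSCB, may have been counted for either.

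Promoter sequence is shown for the 3 genes that were called, for RAD9A as a gene with the same letters and no call, and for the stretch between ATM and NPAT. E2F factors drive genes of S phase entry, the CHR element is bound by the MuvB complexes that repress and activate cell cycle genes, and the CCAAT box is bound by NF-Y. RefSeq windows on GRCh38.p14, from 250 bases before to 50 after a start, held 9 of the 10 genes with 15 starts, the exception being HUS1. An E2F-type match was the form TTGGCGC, or else the form TTCGCGC, the form TTCCCGC or the form TTGCCGC. A CHR-type match had the letters TTTGAA. The box of NF-Y was sought by the letters of its name, and each motif on both strands. Around the start, CLSPN (chr1:35769977-35770006, minus strand), TOPBP1 (chr3:133661940-133661969, minus strand) and RAD9A (chr11:67391958-67391987, plus strand) read as follows, with 28 bases before the start and 2 after it, and with capitals for the E2F-type letters.
CLSPN: ggtgggacctccactctggctggGCGGGAA
TOPBP1: gcaagcgcggccgcgcggTTGGCGCGAAag
RAD9A: gcaggggcggtgcGCGGGAAgggaccccgg
The match began 5 bases before the start in CLSPN and 15 bases before it in RAD9A, and in TOPBP1 a pair of overlapping matches on opposite strands began 10 and 7 bases before it.

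Of the 15 windows, 3 held an E2F-type match, those of CLSPN, TOPBP1 and RAD9A, where 13.0% of all 35116 windows did. CHEK1 was called lower and held none in its 3 windows, and RAD9A held one and was not called. CCAAT boxes were in 12 of the 15 windows, against 34.6% of all windows. Windows of one gene can overlap and hold the same box, as those of CHEK1 did. Counted by gene, 7 of the 9 had a box in at least 1 window. The share of all genes with a box was not computed, so this count has no background to be read against. Boxes were found in CLSPN and CHEK1, which were called lower, and in ATM, ATRIP, CHEK2, RAD17 and RAD9A, which were not called. TOPBP1 was called lower and had no box. CHEK2 had reverse boxes 199, 70 and 40 bases before its start. CLSPN had 3 boxes, 119, 94 and 46 bases before the start, all in the reverse orientation, and CHEK1 had one 105 bases before the start used here. The stretches upstream of the start of CLSPN (chr1:35770007-35770103, minus strand) and CHEK1 (chr11:125626039-125626228, plus strand) show them in capitals.
CLSPN: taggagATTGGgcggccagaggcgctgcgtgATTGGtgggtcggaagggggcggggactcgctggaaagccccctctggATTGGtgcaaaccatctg
CHEK1: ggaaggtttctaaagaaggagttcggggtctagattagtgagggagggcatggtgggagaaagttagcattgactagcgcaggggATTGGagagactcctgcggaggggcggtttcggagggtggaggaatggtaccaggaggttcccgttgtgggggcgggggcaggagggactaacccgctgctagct
The next stretch lies between the starts of NPAT and ATM (chr11:108222817-108223043, shown on the plus strand, along which ATM is transcribed). Its capitals mark a reverse CCAAT box 188 bases before the RefSeq start of ATM, and a CHR-type match 20 bases before that start lies just past it.
ATM: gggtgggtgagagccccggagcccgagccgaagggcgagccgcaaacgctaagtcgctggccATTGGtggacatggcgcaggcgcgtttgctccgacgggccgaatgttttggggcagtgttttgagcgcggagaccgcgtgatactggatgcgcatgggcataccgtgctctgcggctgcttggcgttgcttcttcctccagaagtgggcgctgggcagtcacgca
CHR-type letters were found in 2 of the 15 windows, those of ATM and RAD17, against 15.2% of all windows. These matches are letters in a window and not shown binding sites.

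Levels were compared between genes per length, as counts scaled to library size and to the length of the canonical transcript (RPKM). In NT the order was CHEK1 (22.3 ± 3.10 RPKM), TOPBP1 (22.2 ± 3.19), CHEK2 (18.0 ± 1.29), RAD17 (14.2 ± 1.36), CLSPN (11.6 ± 1.96), ATR (7.36 ± 0.985), HUS1 (5.89 ± 0.211), ATRIP (4.22 ± 0.263), RAD9A (3.57 ± 1.20) and ATM (1.89 ± 0.0129). Libraries of neighbours in this order overlapped for CHEK1 and TOPBP1, for RAD17 and CLSPN, and for ATRIP and RAD9A, and were apart for the other neighbours. The apical kinase ATM was thus the lowest of the 10 in RPKM, and the effector CHEK1 the highest in NT by the mean.

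In OXA the order at the top was another one. CHEK2 led with 17.4 ± 1.02 RPKM, and its 3 libraries lay above those of CHEK1 (14.8 ± 0.959 RPKM), whereas in NT the 3 libraries of CHEK1 had lain above those of CHEK2. TOPBP1 (14.6 ± 1.45 RPKM) and RAD17 (13.9 ± 1.20) followed and overlapped. CLSPN (5.82 ± 0.447 RPKM) lay between ATR (5.87 ± 0.464) and HUS1 (5.62 ± 0.136) and overlapped with both, whereas ATR was apart from RAD17 above it and HUS1 from ATRIP below it. ATRIP, RAD9A and ATM kept the last places, ATM at 1.60 ± 0.0236 RPKM. The lengths are those of 1 transcript per gene, 4128 bases for CHEK1 and 1844 for CHEK2, and another choice of transcript would move the order between genes but not the fold change of a gene.

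**Figure D4:**
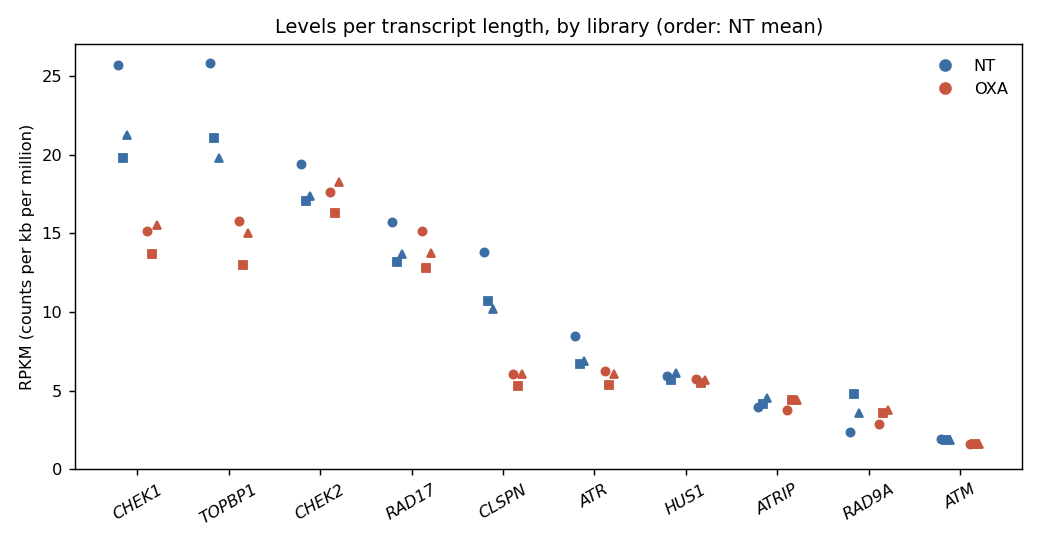
RPKM (y axis, from 0) of the 10 genes in each NT (blue) and OXA (red) library, ordered by the NT mean, with the library number as the symbol. CHEK1 lies above CHEK2 in NT and below it in OXA, CLSPN lies level with ATR and HUS1 in OXA, and ATM is lowest in both groups.

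The wider checkpoint was read from 40 other genes in 7 role lists, of which 39 passed the filter. Of the 39, 7 were lower in OXA by edgeR's adjusted p-value, 1 was higher and 31 gave no call, where 2.29% of all genes were lower and 2.78% higher. The fit with the replicate block had 16 lower and 2 higher, where 10.9% and 12.1% of all genes were. At these shares, a count of 0 in a list of 4 to 6 genes is near the background. Their median log2 fold change was -0.25, against 0.023 for all genes. In the fit without the block, 0 were lower and 0 higher when OXA library 1 was left out. Leaving out OXA library 2 gave 1 lower and 0 higher. In those fits 0.136% and 0.231% of all genes were lower, so calls were few among all genes too. The blocked fit was not repeated with a library left out. The single higher gene was also lost without NT library 3. Without NT library 1, 9 were lower and 1 higher.

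Among 7 targets at the cyclin-dependent kinase switch, 3 were called lower and 0 higher. WEE1, the kinase that holds CDK1 inactive, fell from 3105 ± 308 to 1667 ± 167 normalized counts, a log2 fold change of -0.90 ± 0.12 (SE) at an adjusted p of 0.00845 by edgeR. CDC25A, the phosphatase that CHEK1 sends for degradation, fell from 2139 ± 299 to 1323 ± 115.5 (log2 fold change -0.69, edgeR adjusted p = 0.0259). CDC25C, which acts at mitotic entry, fell from 994 ± 37.0 to 680 ± 76.2 (log2 fold change -0.55, edgeR adjusted p = 0.0428). Inhibitory and activating regulators of the switch were therefore both among the genes that fell. CDK2 and CDK1 were called with the block (edgeR adjusted p = 0.00907 and 0.0204) at log2 fold changes of -0.39 and -0.36 without it.

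Of 6 genes of checkpoint shut-off and recovery, PPM1D rose and DTL fell. PPM1D encodes the phosphatase WIP1, a p53 target that reverses phosphorylations set by ATM and ATR, and went from 2202 ± 365 to 4417 ± 577 normalized counts, a log2 fold change of 1.00 ± 0.15 (SE) at an adjusted p of 0.0118 by edgeR. DTL, the substrate receptor of a ubiquitin ligase that acts on chromatin-bound PCNA, went from 4088 ± 635 to 2093 ± 238, a log2 fold change of -0.97 ± 0.14 (SE) at an adjusted p of 0.0112 by edgeR. FBXO6, which marks CHEK1 for degradation, was called higher with the block (edgeR adjusted p = 0.0484), at a log2 fold change of 0.38 and an edgeR adjusted p of 0.342 without it.

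Of 6 chromatin mediators of double-strand break signaling, BRCA1 and MDC1 fell and 0 rose. BRCA1, which acts in homologous recombination and checkpoint control, went from 3105 ± 326 to 1686 ± 131 normalized counts, a log2 fold change of -0.88 ± 0.11 (SE) at an adjusted p of 0.00802 by edgeR. MDC1, the reader of phosphorylated H2AX, went from 8025 ± 914 to 5641 ± 375 (log2 fold change -0.51, edgeR adjusted p = 0.0428). The ubiquitin ligase gene RNF168 was called lower with the block (log2 fold change -0.36, edgeR adjusted p = 0.0839 without the block and 0.0212 with it). H2AX, TP53BP1 and RNF8 gave no call in either fit.

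Of 5 genes of fork protection and checkpoint adaptors, WDHD1, a replisome scaffold, fell from 3793 ± 462 to 2546 ± 258 normalized counts (log2 fold change -0.57, edgeR adjusted p = 0.0395). TIMELESS, a fork protection gene, and DNA2, an end-processing nuclease gene, were called lower with the block (edgeR adjusted p = 0.0144 and 0.0260). Of the other ATR activators and clamp subunits, 0 of 4 tested were called. RHNO1, which encodes a partner of the clamp and TOPBP1, and RAD1, the remaining subunit of the clamp, were called lower with the block (edgeR adjusted p = 0.0115 and 0.0299) at log2 fold changes of -0.48 and -0.27 without it. HUS1B, a paralog of HUS1, did not pass the filter, with 1 raw count in each NT library and 1, 2 and 6 in OXA. RAD9B, the paralog of RAD9A, was near the detection limit, where NT libraries held 14, 14 and 12 raw counts and OXA libraries 5, 0 and 10.

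The MRE11-RAD50-NBN complex and its ATM cofactors gave 0 calls among 5 genes without and with the block, with log2 fold changes from -0.39 to -0.014 and an unadjusted p-value under 0.05 in 1 of them, MRE11. For the other large kinases of the ATM and ATR family, such as DNA-PKcs (gene PRKDC), with their chaperone, 0 of 6 genes were called, and the block called PRKDC and TTI1 lower (edgeR adjusted p = 0.0367 and 0.0120). Their log2 fold changes without the block were -0.20 and -0.34. Of these 2 genes, TTI1 encodes a subunit of the chaperone that stabilises ATM and ATR.

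**Figure D5:**
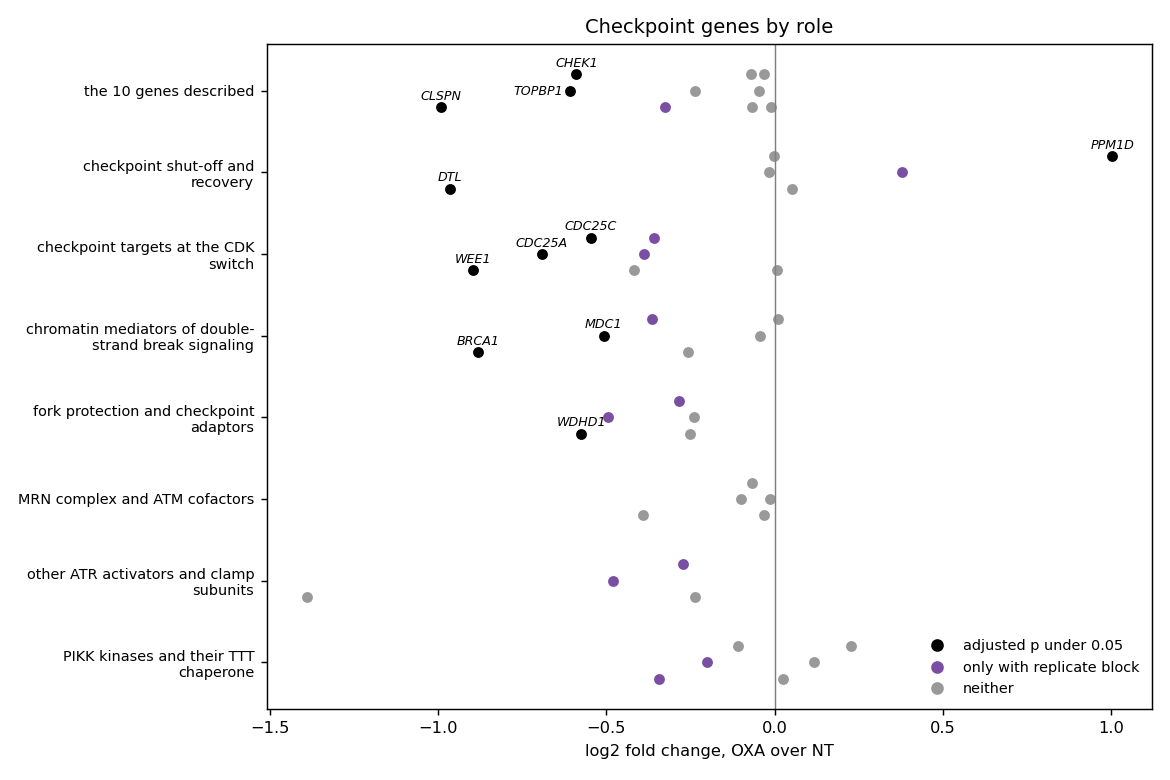
Log2 fold change of OXA over NT (x axis) for the 10 genes and for the 39 tested genes of 7 role lists (rows), with genes called without the block in black and named, genes called with the replicate block alone in purple and the rest in grey. Called genes lie at or below -0.51 apart from PPM1D at 1.00, and the lists of the MRE11-RAD50-NBN complex, of the other clamp subunits and of the large kinases hold no black point.

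The genes whose log2 normalized levels followed the 3 called genes most closely over the 6 libraries were sought among 12065 genes with a mean of at least 50 normalized counts. For CLSPN they were PRPS2, MCM10 and ATAD2, with Pearson correlations of 0.999, 0.999 and 0.998. MCM10 takes part in replication initiation, PRPS2 in nucleotide synthesis and ATAD2 is a chromatin ATPase. For TOPBP1 they were ERCC6L, SKP2 and SORT1 (0.999 each), and for CHEK1 they were MKX (0.999), CTBS and CCNB2 (0.999 and 0.998). With 6 libraries, 511 genes had a correlation above 0.95 with CLSPN, 508 with TOPBP1 and 549 with CHEK1. The correlations take both groups together, so a shared difference between NT and OXA raises them. A shared deviation of NT library 1 can raise them too. On the log2 scale this deviation was 0.27 for CLSPN, 0.23 for TOPBP1 and 0.22 for CHEK1, and -0.08 for ATRIP and -0.52 for RAD9A. The part of this deviation in the correlations was not tested. These names therefore mark likeness of pattern in these libraries alone. Among the 10 genes, CLSPN had correlations of 0.986 with TOPBP1 and 0.985 with CHEK1, and of 0.967 and 0.923 with ATM and ATR, which were not called. The correlations of CLSPN with the other 5 genes were 0.692 for HUS1, 0.528 for CHEK2, 0.391 for RAD17, -0.108 for ATRIP and -0.180 for RAD9A.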

How the data were processed

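RNA-seq libraries of HCT116 cells, 3 NT and 3 OXA, were grouped by the sample titles. Per the submitters' processing notes, the tools were Trimmomatic 0.32, STAR 2.7.5b, RSEM 1.3.3 and DESeq2 2.13 on GRCh38. The gene annotation and strand setting of the counting are not given in the sources used here. The authors deposited a raw count per gene and library, used as deposited. They also deposited a normalized signal, which is the raw count times a factor that differs between genes and libraries, and it was used for an alternative.

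Low genes were removed by filterByExpr (a count of about 10 in as many libraries as a group holds and 15 in total), TMM factors were applied, and OXA was set against NT by the quasi-likelihood test of edgeR 4.0.16 (limma 3.58.1, R 4.3.3). P-values were adjusted by Benjamini-Hochberg across the 13727 genes left, with a threshold of 0.05. DESeq2 1.42.0 was an alternative. Standard errors (SE) come from the estimate and its F statistic, and 95% confidence intervals use the same error. Intervals cover the spread between libraries and PCR duplicates were not distinguishable. GENCODE 44 gave positions, canonical transcripts and their GC content, and promoters came from RefSeq (GRCh38.p14). RPKM values were computed here from the counts.

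The fits were tested on simulated counts. With a simulated effect shared by libraries of one number, the unblocked fit found fewer of the changed genes than the blocked one. NT and OXA libraries of the same number shared deviations from their group means (Pearson r over genes 0.547, 0.542 and 0.307 for libraries 1 to 3, all over the limit of 0.1). The numbers come from the titles, and what they stand for is not stated, so the fit with the replicate block is given where it changes a call.

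The 10 genes and the role lists were chosen with earlier results of these data known, and the ratios of gene pairs after raw counts had been seen. Role lists came from general knowledge, and H2AX was matched by its Ensembl identifier. Named genes are the 10, genes of the role lists called without or with the block or failing the filter, divergent or overlapping neighbours and, for called genes, the 3 most correlated genes. Genes named in addition were chosen after their values were seen. Alternatives were other normalization factors, no filter, DESeq2, the replicate block, the authors' factors as offsets without and with the block, and the omission of each library. Left out were the blots, imaging and viability assays.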

Additional observations from a re-analysis of the deposited data

How the results depend on the processing

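CLSPN, CHEK1, TOPBP1, ATR, ATM and HUS1 kept the sign of their fold change under all 12 alternatives. Of these, CLSPN was called in 10, CHEK1 in 7, TOPBP1 in 6, ATR in 2, and ATM and HUS1 in 0. The 2 for ATR were the fits with the replicate block. With the authors' factors as offsets, 1 of the 10 genes (CLSPN) was called lower, and with the replicate block added to these offsets 4 were. Leaving out each library in turn gave 0 to 3 genes called lower, the 0 without OXA library 1 or OXA library 2. In those fits the log2 fold change ranged from -0.082 to 0.062 for ATRIP, -0.11 to 0.016 for CHEK2, -0.12 to 0.048 for RAD17 and -0.29 to 0.17 for RAD9A, so that their signs turned on single libraries. Of the role lists, 7 were lower and 1 higher, against 11 lower with DESeq2, 16 lower and 2 higher with the replicate block, 14 lower with the block and the authors' factors, and 0 to 9 lower and 0 to 1 higher with a library left out. Of all genes, 381 were higher and 315 lower, against 604 and 571 with DESeq2, 1664 and 1493 with the replicate block, 241 and 200 with the authors' factors, 1319 and 1167 with these and the block, and 66 to 623 and 19 to 571 with a library left out. For the settings that moved a count, the cause was not tested. With TMM factors, the block changed the call of ATR alone among the 10 genes. With the authors' factors as offsets, it changed the calls of CHEK1, TOPBP1 and ATR. Depth limits HUS1B and RAD9B, and the spread between libraries limits RAD9A.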
